A study of Mus musculus with 6 samples.

Results

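The genes described here are the Rab GTPases and endosomal sorting genes of mouse leukaemia cells, chosen by name. The rule used no measured value, but it was set with earlier results of these data known. A gene was a member where its symbol began with Rab, Vps, Snx, Stx, Vamp or Chmp followed by a digit, or with Tbc1d, and 170 of the 13185 rows of the deposited table met this rule. The 170 were 45 Rab GTPases, 9 effectors or regulators that carry a Rab number, 27 TBC1D proteins, 4 retromer subunits, 27 sorting nexins, 15 ESCRT or VPS4 genes, 13 HOPS, CORVET, GARP or EARP tether subunits, 4 VPS13 genes, 20 SNAREs, 3 other VPS-named genes and 3 antisense or pseudogene rows. The cells were T-cell acute lymphoblastic leukaemia (T-ALL) driven by Notch1, and what drove Notch1 in them was not given in the sources used here. In 3 libraries the cells had been exposed for 2 h to 25 nM panobinostat, a drug that inhibits histone deacetylases, and in 3 libraries they had been left untreated. Cells of either group grew on plate-bound anti-CD3 at 2.5 ug/mL, an antibody against the T cell receptor complex, and with 100 U/mL of IL-2, a cytokine on which T cells grow. Expression was measured by 3' mRNA sequencing, which reads the polyadenylated end of transcripts, and is given as log2 CPM (log2 of counts per 1000000 reads). The library titles of a group carry the same sample number and differ only in a running number, and nothing in the labels ties them to separate cultures or mice, so the p-values measure the spread between these libraries, which may be technical.

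Rab GTPases are small switches that mark the membranes of the secretory and endocytic pathways: in the GTP-bound state they recruit tethers, motors and sorting proteins, and GTPase-activating proteins, most of them with a TBC domain, turn them off. Cargo that enters endosomes is returned to the Golgi or the cell surface by retromer and sorting nexins, or is packed into inner vesicles by ESCRT complexes for breakdown in lysosomes. Tethers and SNARE proteins, the syntaxins and VAMPs among them, join the vesicles to their target membrane. In T cells these routes recycle the T cell receptor and deliver it to the immune synapse, and they release cytotoxic granules.

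Depth was read from the steps between tied low values, which gave between 6010000 and 7740000 reads per library, so that 1 CPM stood for 6.01 to 7.74 reads. Fold changes are on the log2 scale and are given ± SE, with n = 3 libraries in each group. A member was tested where its mean over the 6 libraries was at least 0 log2 CPM, and a change was called where the Benjamini-Hochberg adjusted p of limma, over all 12554 genes tested, was below 0.05. The values looked quantile normalized between the libraries, so a shift of all genes in one direction could not be seen. All 11 T cell markers examined were present, with a summed level of 1388 to 1433 CPM in panobinostat libraries against 1820 to 1942 CPM in untreated libraries, and 1 of them rose and 6 fell. Markers of other blood cells were present as well: 7 of 8 myeloid markers, which summed to 1053 to 1151 CPM in panobinostat and 1294 to 1467 CPM in untreated libraries with 0 risen and 4 fallen, 5 of 6 B cell markers, at 41.4 to 42.5 against 49.7 to 58.6 CPM with 0 risen and 2 fallen, and 6 of 6 erythroid markers, at 6297 to 6700 against 6686 to 7942 CPM with 1 risen and 3 fallen. The part of these cells in the changes below was not tested, and in such bulk samples fewer cells of a type and less RNA per cell cannot be told apart.

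More Rab and sorting genes rose than fell 2 h into panobinostat. Of the 163 members tested 46 rose and 31 fell, which is 47.2% called, against 38.3% of all genes tested. Members that rose were 28.2% of those tested (19.2% of all genes) and members that fell were 19% (19% of all genes). The called genes of retromer (3 of 4 tested) and VPS13 (3 of 4) all rose. Those of GARP and EARP (2 of 5) fell, and ESCRT genes gave 4 rises and 4 falls. HOPS and CORVET gave 1 rise and 3 falls. That rise was Vps33b, whose protein in mammals works mainly in a separate complex. These counts are small, and differences between the complexes were not tested. In 97 members the 3 panobinostat libraries did not overlap the 3 untreated ones, 55 above and 42 below them, where 51.4% of all genes had groups apart. Changes of at least 2-fold were called in 10 risen members (5.12% of all genes) and 12 fallen members (5.15% of all genes). The median log2 fold change of the tested members was 0.13, and that of all genes was -0.01. Members lay slightly higher in expression than other genes, with a median of 4.39 against 4.16 log2 CPM for all genes tested. Among genes above that 4.16, 49 of 91 members were called (53.8%), against 46.6% of all genes. The 7 members below the filter were Rab26, Rab44, Rab11fip5, Snx21, Snx32, Stx3 and Tbc1d9, and they are described at the end.

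**Figure D1:**
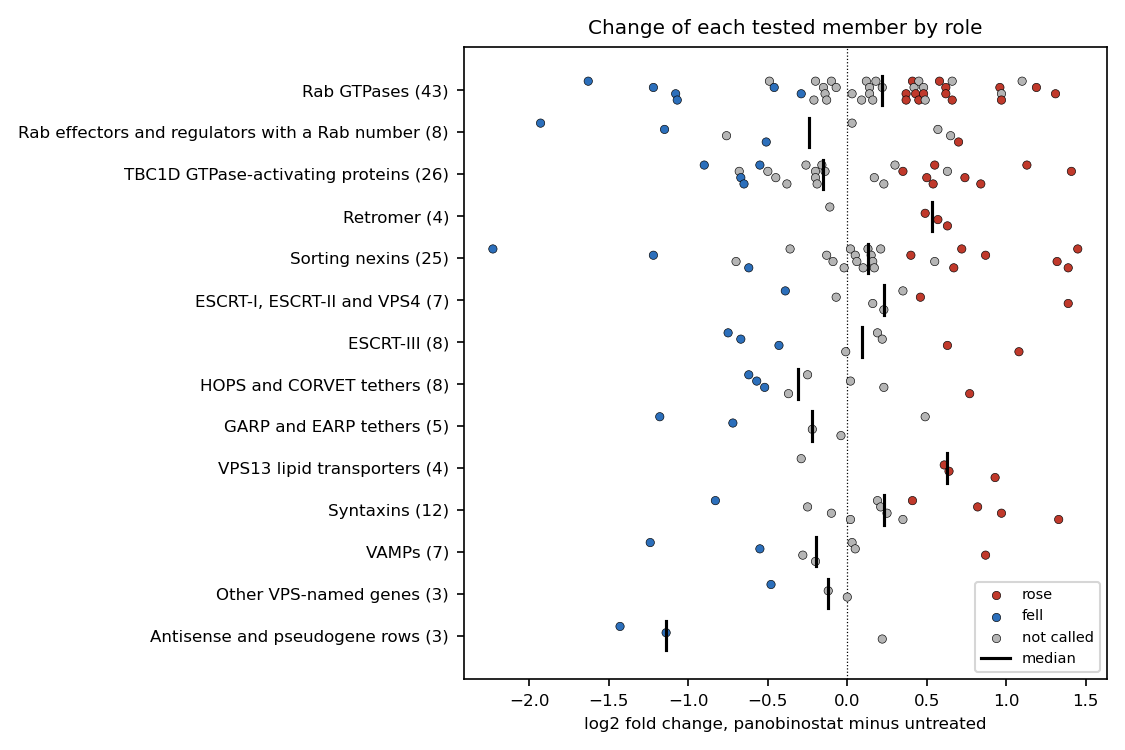
Log2 fold change (panobinostat minus untreated, x axis) of each of the 163 tested members, by role (y axis, with the number tested). Each point is a gene, red where it rose, blue where it fell and grey where it was not called, and black bars mark medians. Retromer and VPS13 genes lie mostly right of 0, with medians of 0.53 and 0.62. HOPS and CORVET genes, with Vps33b counted among them, have a median of -0.31.

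Among the Rab GTPases themselves 14 rose and 6 fell of 43 tested, which is 46.5% called, against 38.3% of all genes. The largest single change was the fall of Rab19, a gene of low expression in the panobinostat libraries. This gene, a little-studied Rab, was at 0.93, 1.41 and 0.93 log2 CPM in panobinostat libraries, against 2.69, 2.65 and 2.83 log2 CPM in untreated libraries. The panobinostat libraries all lay below the untreated ones (log2 fold change -1.63 ± 0.23, limma adjusted p = 0.00177). Rab29, which recruits the kinase LRRK2 to membranes in human cells, was at 3.84, 4.03 and 3.72 log2 CPM in panobinostat libraries, against 4.94, 5.25 and 5.06 log2 CPM in untreated libraries. Its groups were likewise apart (log2 fold change -1.22 ± 0.13, limma adjusted p = 0.000744). Rab23, known as a brake on Hedgehog signalling, was at 2.69, 2.40 and 2.64 log2 CPM in panobinostat libraries, against 3.71, 3.57 and 3.68 log2 CPM in untreated libraries, again with every panobinostat library lower (log2 fold change -1.08 ± 0.15, limma adjusted p = 0.00187). Rab11b (chromosome 17, 33742484 to 33760530 in the GENCODE M21 annotation of GRCm38, as are all gene positions here), a Rab of recycling endosomes whose pseudogene row may share its reads, was at 4.48, 4.60 and 4.54 log2 CPM in panobinostat libraries, against 5.65, 5.61 and 5.57 log2 CPM in untreated libraries. The libraries of each group lay close together, and the fall was 2.1-fold (log2 fold change -1.07 ± 0.09, limma adjusted p = 0.000335). Smaller falls were those of Rab1b (-0.46 ± 0.11), which acts between endoplasmic reticulum and Golgi, and of Rab22a (-0.29 ± 0.09), a Rab of early and recycling endosomes. The Rab1b call was lost without untreated library 3 (-0.38), and the Rab22a call on leaving out any 1 of panobinostat libraries 1, 2 and 3 or untreated libraries 2 and 3 (-0.30 to -0.25).

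The largest rises among called Rab GTPases were those of Rab3d and Rab3a, which control regulated exocytosis and are best known from secretory cells and neurons. Rab3d was at 2.61, 2.99 and 2.64 log2 CPM in panobinostat libraries, against 1.04, 1.96 and 1.31 log2 CPM in untreated libraries (log2 fold change 1.31 ± 0.28, limma adjusted p = 0.00885). Rab3a was at 2.92, 3.12 and 3.18 log2 CPM in panobinostat libraries, against 2.12, 1.96 and 1.57 log2 CPM in untreated libraries (log2 fold change 1.19 ± 0.21, limma adjusted p = 0.00405). Neither gene had a panobinostat library as low as any untreated one, both are expressed at low levels here, and an exon of Mpv17l2 on the other strand lies in the last 1000 bases of Rab3a. Rab9, which returns receptors from late endosomes to the Golgi, rose as well and is named here after its values were seen; it was at 3.05, 3.16 and 3.23 log2 CPM in panobinostat libraries, against 2.12, 2.13 and 2.31 log2 CPM in untreated libraries (log2 fold change 0.96 ± 0.16, limma adjusted p = 0.0037). Of the more abundant Rab genes, Rab6a of the Golgi was at 7.07, 7.09 and 7.14 log2 CPM in panobinostat libraries, against 6.55, 6.36 and 6.63 log2 CPM in untreated libraries (log2 fold change 0.58 ± 0.09, limma adjusted p = 0.00254). Rab18, which acts at the endoplasmic reticulum and lipid droplets and was also picked out afterwards, rose by 0.62 ± 0.10. Rab8a and Rab8b, which carry cargo from the Golgi to the surface and to cilia, rose by 0.37 ± 0.07 and 0.66 ± 0.13. Rab11a, the main Rab of recycling endosomes, was at 6.26, 6.33 and 6.18 log2 CPM in panobinostat libraries, against 5.82, 5.66 and 5.86 log2 CPM in untreated libraries. Its rise was 1.39-fold with no overlap of the groups (log2 fold change 0.48 ± 0.09, limma adjusted p = 0.00574).

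Rab5 acts on early endosomes, and 1 of its 3 paralogs was called. Rab5b was at 5.91, 6.13 and 6.07 log2 CPM in panobinostat libraries, against 5.59, 5.63 and 5.55 log2 CPM in untreated libraries, a rise with groups apart (log2 fold change 0.45 ± 0.09, limma adjusted p = 0.00721). Rab5c had -0.13 ± 0.11 and Rab5a -0.10 ± 0.23, and neither was called. Rab5a was at 4.73, 3.85 and 4.75 log2 CPM in panobinostat libraries, against 4.59, 4.58 and 4.47 log2 CPM in untreated libraries, so that panobinostat library 2 stood apart, and without it the log2 fold change was 0.19. Rab1a, the paralog of Rab1b, rose by 0.43 ± 0.10, and Rab35, which recycles cargo from endosomes to the plasma membrane, by 0.37 ± 0.10. The Rab1a call was lost without panobinostat library 3 (0.36) and the Rab35 call without panobinostat library 1 (0.35) or panobinostat library 3 (0.34). The remaining rises, named after their values were seen, were those of Rab12 (0.41 ± 0.10), Rab28 (0.62 ± 0.17) and Rab42 (0.97 ± 0.28). The Rab12 call was lost on leaving out any 1 of panobinostat libraries 1 and 2 or untreated library 3 (0.37 to 0.39). That of Rab28 was lost on leaving out any 1 of panobinostat libraries 1 and 3 or untreated libraries 2 and 3 (0.45 to 0.67), and that of Rab42 on leaving out any 1 of panobinostat libraries 1, 2 and 3 or untreated libraries 1 and 2 (0.83 to 1.05).

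Several Rabs central to endosomes did not pass the threshold, though intervals of this width leave room for changes of modest size. Rab7, which drives late endosomes towards lysosomes, was at 6.61, 6.66 and 6.56 log2 CPM in panobinostat libraries, against 6.47, 6.50 and 6.50 log2 CPM in untreated libraries. The groups did not overlap, but the difference was small (log2 fold change 0.12 ± 0.07, limma adjusted p = 0.227). Rab4a had -0.14 ± 0.42, Rab4b -0.49 ± 0.20, Rab14 -0.20 ± 0.08, Rab21 0.09 ± 0.11 and Rab10 0.14 ± 0.07, all on the log2 fold change scale. For the Golgi and secretory Rabs Rab2a and Rab2b the values were -0.21 ± 0.08 and 0.14 ± 0.16. Rab27a, which docks cytotoxic granules in T cells, had 0.16 ± 0.12, with overlapping groups. Rab6b (0.97 ± 0.40) and Rab7b (0.03 ± 0.19) did not pass either, and the other tested Rab GTPases that missed the threshold ranged from -0.15 (Rab24) to 1.10 (Rab37).

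**Figure D2:**
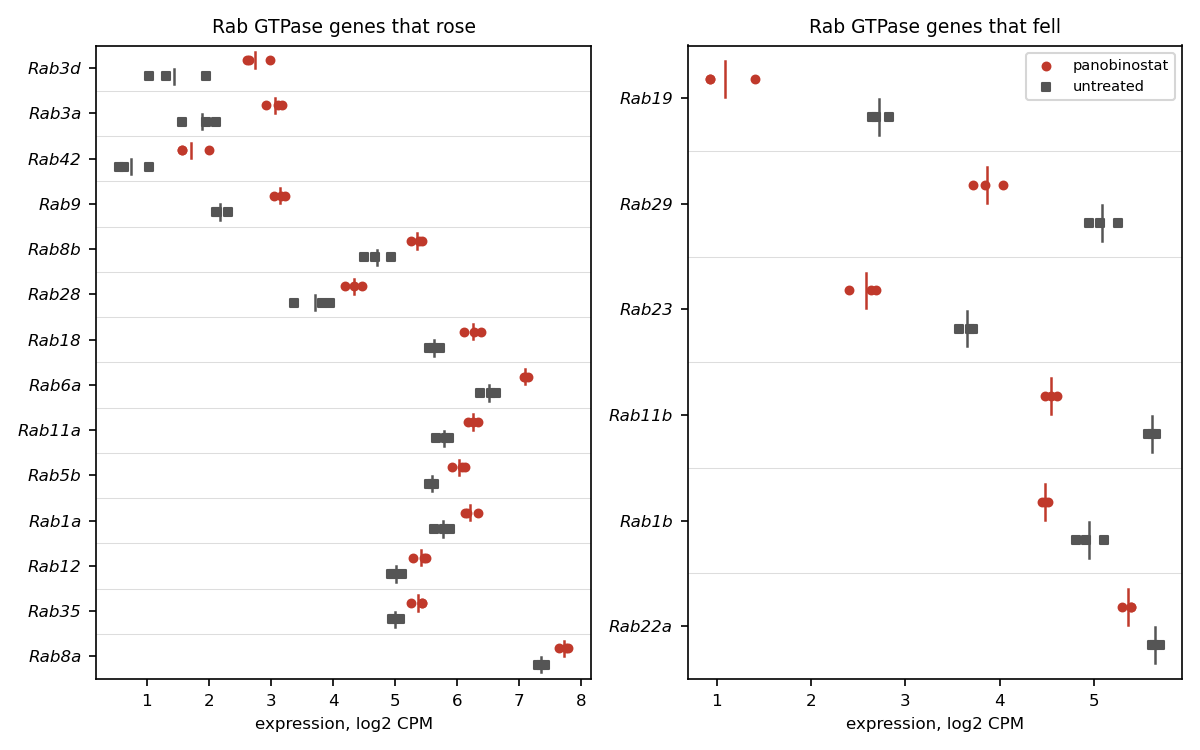
Expression in log2 CPM (x axis) of the 14 Rab GTPase genes that rose (left) and the 6 that fell (right), with 1 point per library, circles for panobinostat above squares for untreated, and a bar at each mean. These genes were picked by their calls, and in each of the 20 the 3 circles lie wholly on one side of the 3 squares. Groups were apart in 51.4% of all genes tested.

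Genes that share a name and number were compared side by side. There were 18 sets of such paralogs with at least 2 members tested. In 5 sets 1 paralog rose and another fell, in 8 at least 1 rose and none fell, in 0 at least 1 fell and none rose, and in 5 none was called. Of single members 28.2% rose and 19% fell, against 19.2% and 19% of all genes tested. Paralog sets among other genes were not counted, so these counts cannot show a trait of this family. Without panobinostat library 3 the sets with a rise and a fall were 3, Rab11, Tbc1d10 and Vps33, and without any other single library they were 4, with Tbc1d22 or, for untreated library 3, Rab1 missing. The 5 were picked out by their calls, so the contrasts are given as a description with no test. Rab11a less Rab11b was 1.77, 1.73 and 1.64 log2 units in panobinostat libraries, against 0.17, 0.04 and 0.29 in untreated libraries. Rab1a less Rab1b was 1.65, 1.67 and 1.85 log2 units in panobinostat libraries, against 1.08, 0.71 and 0.70 in untreated libraries. In either pair the difference was larger in every panobinostat library than in any untreated one. Tbc1d10b less Tbc1d10c was -0.38, -0.55 and -0.28 log2 units in panobinostat libraries, against -1.84, -1.57 and -1.40 in untreated libraries. For Tbc1d22a less Tbc1d22b the values were -0.13, -0.01 and -0.55 log2 units in panobinostat libraries, against 0.71, 1.06 and 0.60 in untreated libraries. For Vps33a less Vps33b they were -0.30, -0.41 and -0.34 log2 units in panobinostat libraries, against 0.85, 1.22 and 0.76 in untreated libraries. Both genes of each of these pairs had groups apart, in opposite directions, so the differences had to lie apart as well.

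**Figure D3:**
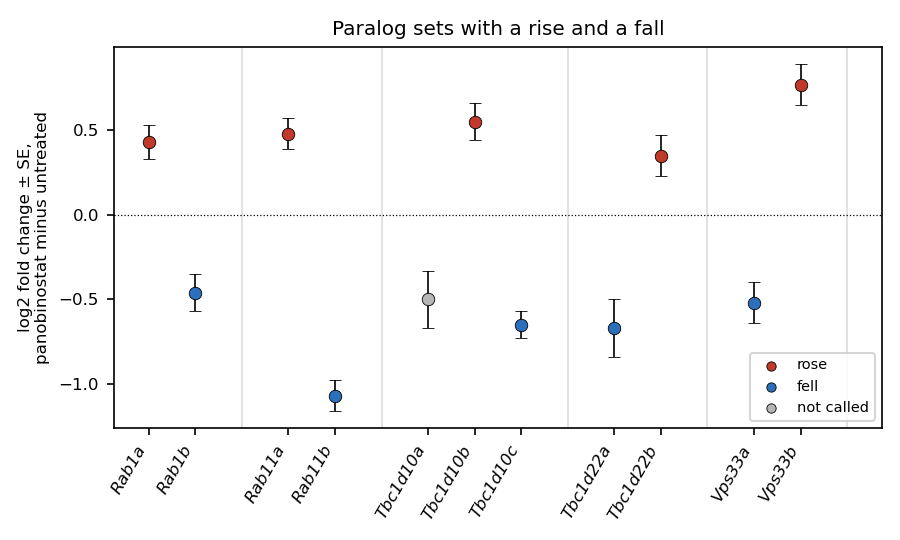
Log2 fold change (y axis, panobinostat minus untreated) with its SE (bars) for the 5 sets of paralogs in which 1 member rose and another fell. Rab11a (0.48) and Rab11b (-1.07) lie on either side of 0, and Tbc1d10a (-0.50) was not called.

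The promoters of the Rab11 paralogs are printed because these genes moved in opposite directions. Sequences are from RefSeq on GRCm38.p6, 250 bases before to 50 after the gene's start on the gene's own strand, and capitals mark 2 motifs on either strand, the CCAAT box, spelled as its name, and the GC box, with the letters GGGCGG. In these windows the Rab11a promoter held both motifs, and the Rab11b promoter held the first but not the second. The first was found in 39.6% and the GC box in 65.7% of the 8563 promoters of tested genes in the RefSeq table. The GC box was in 84.2% of 38 promoters of risen members, 60% of 25 of fallen and 68.3% of 63 of uncalled members. Rab1a, which rose, and Rab1b, which fell, both held the GC box. A link between this motif and the direction of change was not tested. A match in letters does not show that a factor binds.
Rab11a (chr9:64737707-64738006, minus strand): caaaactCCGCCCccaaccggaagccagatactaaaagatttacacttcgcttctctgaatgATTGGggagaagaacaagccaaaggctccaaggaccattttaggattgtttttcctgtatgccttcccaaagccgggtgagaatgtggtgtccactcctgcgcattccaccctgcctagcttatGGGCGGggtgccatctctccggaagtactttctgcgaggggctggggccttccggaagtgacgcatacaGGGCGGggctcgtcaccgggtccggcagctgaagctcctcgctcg
Rab11b (chr17:33760437-33760736, minus strand): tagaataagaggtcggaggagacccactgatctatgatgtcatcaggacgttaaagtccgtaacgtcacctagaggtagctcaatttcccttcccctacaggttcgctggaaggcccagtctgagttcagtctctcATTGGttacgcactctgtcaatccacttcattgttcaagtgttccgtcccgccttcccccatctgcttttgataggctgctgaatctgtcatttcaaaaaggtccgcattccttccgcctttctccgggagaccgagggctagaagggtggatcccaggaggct

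The regulators that carry a Rab number gave 1 rise and 3 falls of 8 tested (50% called, against 38.3% of all genes). Rab11fip2 (chromosome 19, 59902884 to 59943654), which links Rab11 to the motor myosin Vb, was at 2.92, 3.02 and 2.64 log2 CPM in panobinostat libraries, against 4.73, 4.92 and 4.72 log2 CPM in untreated libraries. This was a 3.82-fold fall with the groups far apart (log2 fold change -1.93 ± 0.15, limma adjusted p = 0.000253). Rab11fip3, a Rab11 partner needed for the end of cell division, was at 0.65, 0.93 and 0.71 log2 CPM in panobinostat libraries, against 1.90, 1.84 and 1.99 log2 CPM in untreated libraries (log2 fold change -1.15 ± 0.24, limma adjusted p = 0.00798). Rab11fip3 was low in both groups. Rab11fip1 had 0.03 ± 0.10 and Rab11fip4 0.65 ± 0.39, neither called. Rab3gap1, the catalytic subunit of the complex that turns off Rab3 and activates Rab18, was at 6.23, 6.27 and 6.20 log2 CPM in panobinostat libraries, against 6.62, 6.88 and 6.74 log2 CPM in untreated libraries (log2 fold change -0.51 ± 0.09, limma adjusted p = 0.00402). Its partner Rab3gap2 had 0.57 ± 0.23 and was not called. Rab3ip, which encodes the Rab8 activator Rabin8, was at 4.61, 4.36 and 4.40 log2 CPM in panobinostat libraries, against 3.81, 3.76 and 3.70 log2 CPM in untreated libraries (log2 fold change 0.70 ± 0.12, limma adjusted p = 0.00394), and it rose together with Rab8a and Rab8b above. Rab3il1, a related activator, had -0.76 ± 0.33 and did not pass.

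TBC1D genes, whose proteins mostly switch Rabs off, gave 8 rises and 4 falls of 26 tested (46.2% called, against 38.3% of all genes). Tbc1d10c, also called Carabin, restrains calcineurin and Ras in T cells. It was at 6.15, 6.17 and 6.09 log2 CPM in panobinostat libraries, against 6.87, 6.82 and 6.68 log2 CPM in untreated libraries. Every panobinostat library was lower (log2 fold change -0.65 ± 0.08, limma adjusted p = 0.0013). Its paralog Tbc1d10b, an activator of GTP hydrolysis on Rab27a and Rab35 in human cells, was at 5.77, 5.63 and 5.81 log2 CPM in panobinostat libraries, against 5.03, 5.25 and 5.28 log2 CPM in untreated libraries (log2 fold change 0.55 ± 0.11, limma adjusted p = 0.00592), while Tbc1d10a had -0.50 ± 0.17 and just missed the threshold (limma adjusted p = 0.0509). Tbc1d14, which binds Rab11 and holds back autophagy, was at 4.09, 4.12 and 4.28 log2 CPM in panobinostat libraries, against 3.42, 2.93 and 2.75 log2 CPM in untreated libraries (log2 fold change 1.13 ± 0.19, limma adjusted p = 0.00364). Tbc1d31, found at centrosomes, was at 5.38, 5.28 and 5.46 log2 CPM in panobinostat libraries, against 4.76, 4.45 and 4.39 log2 CPM in untreated libraries (log2 fold change 0.84 ± 0.13, limma adjusted p = 0.00236). Tbc1d1, known from glucose transporter traffic in muscle, rose by 0.54 ± 0.10. Tbc1d8 was low, at 1.90, 1.64 and 1.04 log2 CPM in panobinostat libraries, against -0.39, 0.38 and 0.35 log2 CPM in untreated libraries (log2 fold change 1.41 ± 0.37, limma adjusted p = 0.0204), its last 1000 bases overlap an exon of the ribosomal protein gene Rpl31 on the other strand, and the call did not hold without panobinostat library 1 (1.22) or panobinostat library 2 (1.35). Tbc1d8b had -0.14 ± 0.31.

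Other called TBC1D genes are named after their values were seen. Tbc1d15, which acts on Rab7 at mitochondria, rose by 0.50 ± 0.09, and Tbc1d17 fell, with -0.55 ± 0.13. Tbc1d22a fell (-0.67 ± 0.17) and Tbc1d22b rose (0.35 ± 0.12); the call of Tbc1d22a was lost without panobinostat library 3 (-0.54), and that of Tbc1d22b on leaving out any 1 of panobinostat libraries 1, 2 and 3 or untreated libraries 1 and 2 (0.27 to 0.40). Tbc1d24 rose (0.74 ± 0.23) and Tbc1d9b fell (-0.90 ± 0.26), with the call of Tbc1d24 lost on leaving out any 1 of panobinostat libraries 1 and 3 or untreated libraries 1, 2 and 3 (0.54 to 0.78), and that of Tbc1d9b on leaving out any 1 of panobinostat libraries 2 and 3 or untreated libraries 2 and 3 (-0.97 to -0.63). The TBC1D genes that did not pass ranged from -0.68 (Tbc1d12) to 0.63 (Tbc1d23) in log2 fold change.

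Retromer, the coat that sorts cargo from endosomes back to the Golgi and the surface, rose in 3 of its 4 subunit genes. Of all genes tested 19.2% rose. Vps35, the scaffold subunit (chromosome 8, 85260392 to 85299802), was at 5.90, 5.82 and 5.77 log2 CPM in panobinostat libraries, against 5.46, 5.33 and 5.24 log2 CPM in untreated libraries. The panobinostat libraries were all above the untreated ones (log2 fold change 0.49 ± 0.09, limma adjusted p = 0.0061). Vps29 was at 5.24, 5.43 and 5.18 log2 CPM in panobinostat libraries, against 4.48, 4.73 and 4.77 log2 CPM in untreated libraries (log2 fold change 0.63 ± 0.12, limma adjusted p = 0.00606), and its last 1000 bases overlap an exon of Fam216a on the other strand. Vps26a was at 4.53, 4.76 and 4.74 log2 CPM in panobinostat libraries, against 3.96, 4.28 and 4.06 log2 CPM in untreated libraries (log2 fold change 0.57 ± 0.13, limma adjusted p = 0.0112). In all 3 genes the groups were apart, as in 51.4% of all genes tested. All 3 calls held in each of the 6 fits that left out 1 library. The alternative subunit Vps26b had overlapping groups and -0.11 ± 0.10 (limma adjusted p = 0.416).

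Sorting nexins bind endosomal lipids through a PX domain, and 7 rose and 3 fell of 25 tested. At 40% called, their share was near the 38.3% of all genes. Snx30 (chromosome 4, 59805840 to 59904737), which pairs with Snx4 on recycling tubules, was at 5.80, 5.84 and 5.98 log2 CPM in panobinostat libraries, against 4.29, 4.46 and 4.52 log2 CPM in untreated libraries. It had the largest rise of all called members, 2.73-fold (log2 fold change 1.45 ± 0.11, limma adjusted p = 0.00024). Snx4 itself had 0.21 ± 0.12. Snx3, which guides retromer to certain cargo, was at 4.80, 5.41 and 5.51 log2 CPM in panobinostat libraries, against 4.53, 3.51 and 3.51 log2 CPM in untreated libraries. Panobinostat library 1 and untreated library 1 lay nearest each other, and the groups did not overlap (log2 fold change 1.39 ± 0.31, limma adjusted p = 0.01). Snx12, the close relative of Snx3, fell and is named after its value was seen (-0.62 ± 0.14). Snx10, needed for acid secretion by osteoclasts, was at 4.07, 3.09 and 3.42 log2 CPM in panobinostat libraries, against 2.26, 2.60 and 1.77 log2 CPM in untreated libraries (log2 fold change 1.32 ± 0.31, limma adjusted p = 0.0123).

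The nexins that shape retromer tubules through a BAR domain were divided. Snx1 was at 7.36, 7.47 and 7.49 log2 CPM in panobinostat libraries, against 6.96, 6.53 and 6.66 log2 CPM in untreated libraries, with groups apart (log2 fold change 0.72 ± 0.12, limma adjusted p = 0.00291). Its partner gene Snx2 rose by 0.40 ± 0.13 close to the threshold, a call lost on leaving out any 1 of panobinostat libraries 1, 2 and 3 or untreated libraries 2 and 3 (0.30 to 0.47). Snx5 (0.02 ± 0.07) and Snx6 (-0.02 ± 0.12) did not pass. The cargo adaptors Snx27 (-0.13 ± 0.16) and Snx17 (-0.36 ± 0.17) did not pass either. Snx33, a nexin with an SH3 domain that acts in endocytosis, was at 0.81, 0.02 and 0.93 log2 CPM in panobinostat libraries, against 2.40, 3.02 and 3.03 log2 CPM in untreated libraries. This was the largest fall of all called members, in a gene of low expression (log2 fold change -2.23 ± 0.33, limma adjusted p = 0.0021). Snx19 was at 3.09, 3.40 and 2.83 log2 CPM in panobinostat libraries, against 4.23, 4.36 and 4.36 log2 CPM in untreated libraries (log2 fold change -1.22 ± 0.17, limma adjusted p = 0.00176). Its relatives Snx25 (0.87 ± 0.21) and Snx14 (0.67 ± 0.20), named after their values were seen, rose, with the call of Snx25 lost without panobinostat library 3 (0.82) and that of Snx14 on leaving out any 1 of panobinostat libraries 1 and 2 or untreated libraries 1, 2 and 3 (0.52 to 0.73). Snx13 had 0.13 ± 0.27. The other nexins that did not pass ranged from -0.70 (Snx9) to 0.55 (Snx22).

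**Figure D4:**
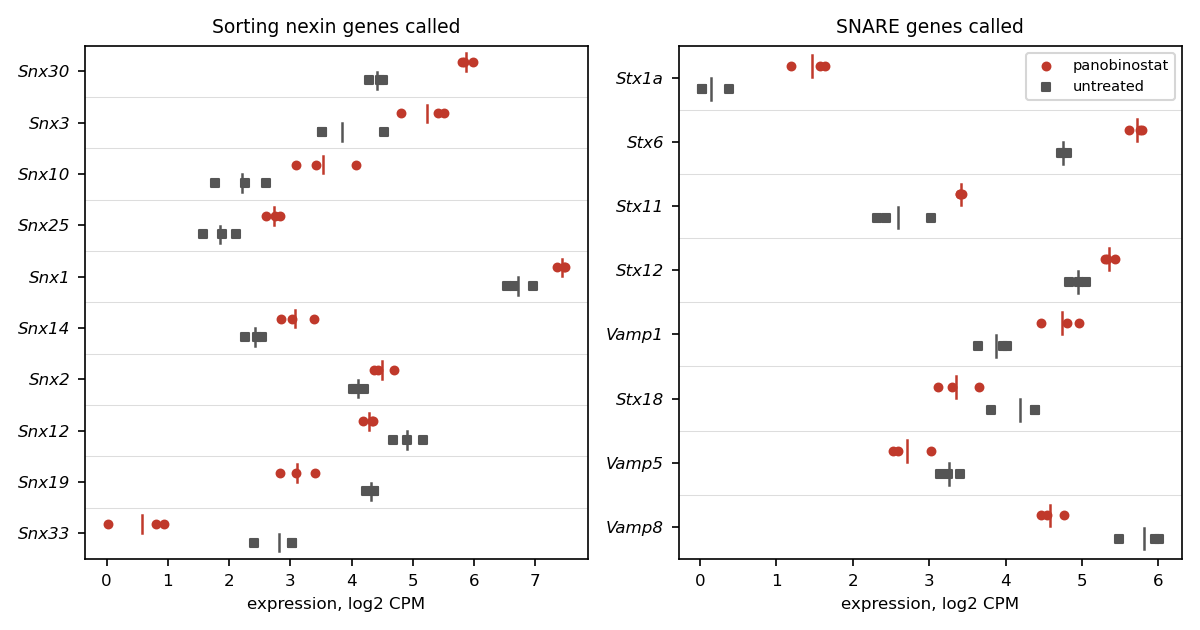
Expression in log2 CPM (x axis) of the 10 sorting nexin genes (left) and 8 SNARE genes (right) that were called, with 1 point per library, circles for panobinostat above squares for untreated, and a bar at each mean. Genes run from risen to fallen within each class, and Snx33 falls to a mean of 0.59 in panobinostat against 2.82 in untreated libraries.

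ESCRT complexes bend membranes away from the cytoplasm, both for lysosomal sorting and for the final cut of cell division. Their genes split evenly, with 4 rises and 4 falls of 15 tested (53.3% called, against 38.3% of all genes). In ESCRT-III, Chmp7, which starts assembly at the nuclear envelope, was at 4.47, 4.65 and 4.72 log2 CPM in panobinostat libraries, against 3.95, 3.24 and 3.40 log2 CPM in untreated libraries (log2 fold change 1.08 ± 0.19, limma adjusted p = 0.00453). Chmp5 was at 5.20, 5.26 and 5.29 log2 CPM in panobinostat libraries, against 4.64, 4.65 and 4.59 log2 CPM in untreated libraries (log2 fold change 0.63 ± 0.09, limma adjusted p = 0.00205). Chmp3, a core filament subunit, was at 6.17, 6.19 and 6.18 log2 CPM in panobinostat libraries, against 7.15, 6.80 and 6.82 log2 CPM in untreated libraries. Its panobinostat values were nearly equal and below every untreated value (log2 fold change -0.75 ± 0.11, limma adjusted p = 0.00197). Chmp6, which connects ESCRT-II to the filament, was at 4.03, 4.16 and 4.14 log2 CPM in panobinostat libraries, against 4.66, 4.88 and 4.80 log2 CPM in untreated libraries (log2 fold change -0.67 ± 0.11, limma adjusted p = 0.00342). The main filament gene Chmp4b had 0.19 ± 0.07 and was not called. Chmp1a, named after its value was seen, fell (-0.43 ± 0.12), with its call lost on leaving out any 1 of panobinostat libraries 1, 2 and 3 or untreated libraries 2 and 3 (-0.47 to -0.34), and Chmp2a (-0.01 ± 0.12) and Chmp2b (0.22 ± 0.09) were not called.

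In the earlier ESCRT complexes Vps37b, an ESCRT-I subunit, was at 6.72, 6.77 and 6.75 log2 CPM in panobinostat libraries, against 6.27, 6.12 and 6.46 log2 CPM in untreated libraries (log2 fold change 0.46 ± 0.10, limma adjusted p = 0.00959). Exons of Hip1r on the other strand lie in its last 1000 bases. Vps37c was near the detection limit, at 1.30, 1.31 and 1.19 log2 CPM in panobinostat libraries, against 0.63, -0.79 and -0.21 log2 CPM in untreated libraries, and its rise (log2 fold change 1.39 ± 0.42, limma adjusted p = 0.0319) was lost on leaving out any 1 of panobinostat libraries 1, 2 and 3 or untreated libraries 2 and 3 (1.06 to 1.43). The untreated mean of Vps37c was -0.12 log2 CPM, below the filter of 0, so this gene passed the filter only through its panobinostat values. Vps37a had 0.23 ± 0.10. Of ESCRT-II, Vps36 fell (-0.39 ± 0.09), a call lost without panobinostat library 1 (-0.34), and Vps25 had 0.35 ± 0.14. The ATPases that take the filaments apart, Vps4a (-0.07 ± 0.13) and Vps4b (0.16 ± 0.08), did not pass.

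The tethers that hold vesicles at endosomes and lysosomes, HOPS and CORVET, gave 1 rise and 3 falls of 8 tested. This was 50% called, against 38.3% of all genes. Vps16, a core subunit of both complexes, was at 4.58, 4.54 and 4.54 log2 CPM in panobinostat libraries, against 5.18, 5.28 and 5.07 log2 CPM in untreated libraries (log2 fold change -0.62 ± 0.10, limma adjusted p = 0.00294). Vps33a, the core subunit that Vps16 binds, was at 4.07, 3.96 and 3.99 log2 CPM in panobinostat libraries, against 4.43, 4.68 and 4.50 log2 CPM in untreated libraries (log2 fold change -0.52 ± 0.12, limma adjusted p = 0.0105). Vps41, which anchors HOPS on lysosomes, was at 4.11, 3.76 and 4.11 log2 CPM in panobinostat libraries, against 4.35, 4.73 and 4.59 log2 CPM in untreated libraries (log2 fold change -0.57 ± 0.15, limma adjusted p = 0.0224), and its call was lost on leaving out any 1 of panobinostat library 2 or untreated libraries 2 and 3 (-0.55 to -0.45). The rise was that of Vps33b, at 4.37, 4.37 and 4.33 log2 CPM in panobinostat libraries, against 3.58, 3.46 and 3.74 log2 CPM in untreated libraries (log2 fold change 0.77 ± 0.12, limma adjusted p = 0.00294); in mammals its protein works mainly in a separate complex and not in HOPS. The 4 subunit genes that were not called were Vps8 (-0.37 ± 0.18), Vps18 (-0.25 ± 0.16), Vps39 (0.02 ± 0.18) and Vps11 (0.23 ± 0.21).

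Of GARP and EARP, which receive endosomal vesicles at the Golgi and at recycling endosomes, 0 genes rose and 2 fell of 5 tested. This was 40% called, against 38.3% of all genes. Vps51, a subunit shared by these complexes, was at 4.26, 4.58 and 4.31 log2 CPM in panobinostat libraries, against 5.40, 5.53 and 5.76 log2 CPM in untreated libraries. The fall was 2.27-fold (log2 fold change -1.18 ± 0.14, limma adjusted p = 0.000907), and an exon of Tm7sf2 on the same strand lies within its last 1000 bases. Vps52, likewise shared, was at 3.12, 3.51 and 3.23 log2 CPM in panobinostat libraries, against 3.72, 4.09 and 4.18 log2 CPM in untreated libraries (log2 fold change -0.72 ± 0.18, limma adjusted p = 0.0154), with its call lost on leaving out any 1 of panobinostat libraries 1 and 3 or untreated library 3 (-0.69 to -0.62). Vps53 (-0.22 ± 0.11), the GARP subunit Vps54 (-0.04 ± 0.18) and the EARP subunit Vps50 (0.49 ± 0.18) were not called. Without untreated library 1 Vps50 passed as a rise (0.64, limma adjusted p = 0.0166), which made 1 rise and 2 falls, and without panobinostat library 1, panobinostat library 3 or untreated library 3 there was 1 fall.

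VPS13 proteins are long bridges that move lipids between organelles, and 3 of the 4 genes rose (19.2% of all genes rose). Vps13d, needed for mitochondrial shape, was at 5.87, 5.77 and 5.85 log2 CPM in panobinostat libraries, against 5.08, 4.78 and 4.83 log2 CPM in untreated libraries, 1.91-fold higher (log2 fold change 0.93 ± 0.11, limma adjusted p = 0.000914). Vps13c, found between endoplasmic reticulum and late endosomes, was at 5.20, 4.90 and 4.94 log2 CPM in panobinostat libraries, against 4.48, 4.22 and 4.43 log2 CPM in untreated libraries (log2 fold change 0.64 ± 0.13, limma adjusted p = 0.00681). Vps13a, mutated in human chorea-acanthocytosis, was at 5.68, 5.46 and 5.67 log2 CPM in panobinostat libraries, against 5.12, 5.0 and 4.89 log2 CPM in untreated libraries (log2 fold change 0.61 ± 0.11, limma adjusted p = 0.00438). The panobinostat libraries of these 3 genes all lay above the untreated ones, where 51.4% of all genes tested had groups apart. The 3 calls held in each of the 6 fits that left out 1 library. Vps13b lay the other way, with -0.29 ± 0.13, and was not called.

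**Figure D5:**
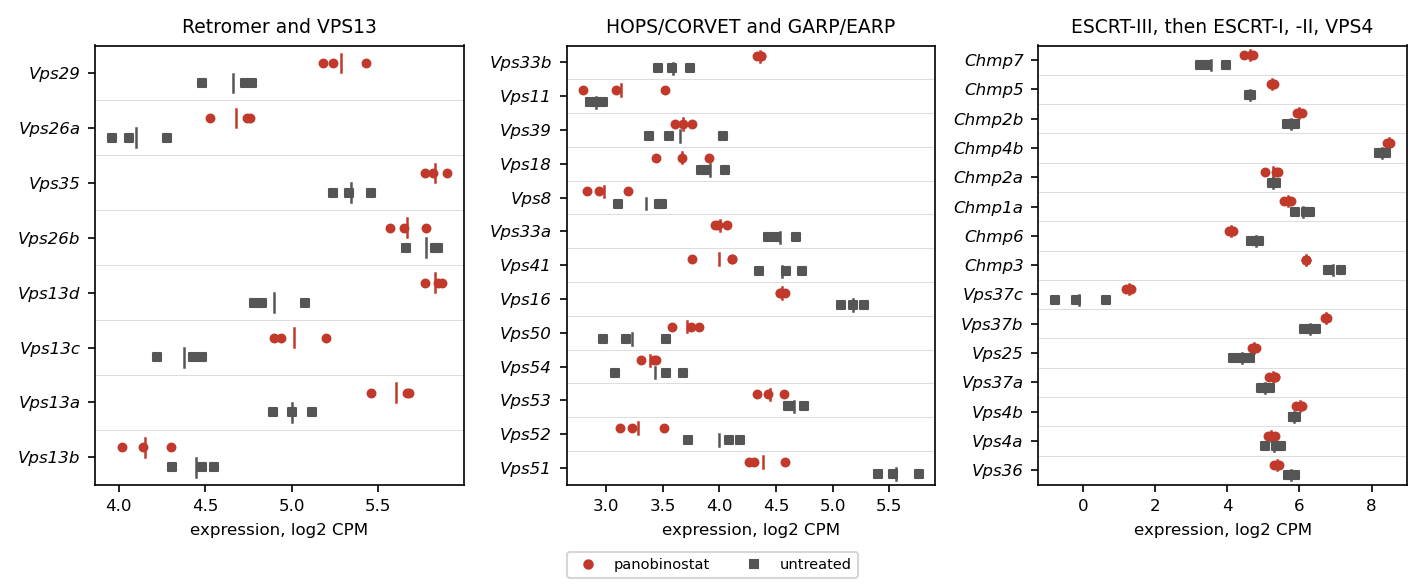
Expression in log2 CPM (x axis) of all tested genes of retromer and VPS13 (left), HOPS, CORVET, GARP and EARP (middle) and ESCRT (right), with 1 point per library, circles for panobinostat above squares for untreated, and a bar at each mean. Circles lie right of squares for Vps35, Vps26a, Vps29, Vps13a, Vps13c and Vps13d, and left of them for Vps16, Vps33a, Vps41, Vps51 and Vps52.

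The promoters below are those of called members that hold TCACGTGA, the core of the CLEAR element through which the factor TFEB acts on lysosomal genes. This motif was found on either strand in 8 of the 126 promoters of tested members in the RefSeq table (6.35%) and in 2.11% of the 8563 promoters of tested genes. The shorter E-box CACGTG, which TCACGTGA contains, was in 22 of the 126 (17.5%) and in 10.5% of the 8563. Genes with the longer motif were found on either side: Vps26a and Stx6 rose, Vps16 and Vps33a fell, and Rab5a, Rab21, Rab24 and Tbc1d13 were not called. It was in 2 of 38 promoters of risen members (5.26%), 2 of 25 of fallen members (8%) and 4 of 63 of uncalled members (6.35%). Capitals mark CACGTG, with the flanking bases where they complete TCACGTGA, on GRCm38.p6 and the gene's own strand.
Vps26a (chr10:62486756-62487055, minus strand, rose): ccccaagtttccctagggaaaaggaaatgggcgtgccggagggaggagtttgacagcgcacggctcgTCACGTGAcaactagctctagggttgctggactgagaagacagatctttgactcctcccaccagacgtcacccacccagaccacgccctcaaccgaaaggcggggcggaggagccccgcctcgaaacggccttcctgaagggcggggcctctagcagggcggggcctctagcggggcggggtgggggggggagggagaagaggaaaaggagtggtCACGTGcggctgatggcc
Stx6 (chr1:155158453-155158752, plus strand, rose): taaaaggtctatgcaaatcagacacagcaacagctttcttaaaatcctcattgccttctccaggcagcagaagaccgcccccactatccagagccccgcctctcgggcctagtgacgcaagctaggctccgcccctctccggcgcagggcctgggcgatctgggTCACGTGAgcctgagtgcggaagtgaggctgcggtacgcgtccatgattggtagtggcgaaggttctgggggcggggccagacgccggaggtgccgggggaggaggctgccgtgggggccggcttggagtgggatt
Vps16 (chr2:130424070-130424369, plus strand, fell): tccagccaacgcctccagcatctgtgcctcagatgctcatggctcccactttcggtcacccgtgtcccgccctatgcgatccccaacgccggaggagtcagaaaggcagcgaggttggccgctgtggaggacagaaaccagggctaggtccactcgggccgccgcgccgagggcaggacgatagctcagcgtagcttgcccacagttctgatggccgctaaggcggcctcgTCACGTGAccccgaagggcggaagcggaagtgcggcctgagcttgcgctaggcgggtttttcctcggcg
Vps33a (chr5:123572966-123573265, minus strand, fell): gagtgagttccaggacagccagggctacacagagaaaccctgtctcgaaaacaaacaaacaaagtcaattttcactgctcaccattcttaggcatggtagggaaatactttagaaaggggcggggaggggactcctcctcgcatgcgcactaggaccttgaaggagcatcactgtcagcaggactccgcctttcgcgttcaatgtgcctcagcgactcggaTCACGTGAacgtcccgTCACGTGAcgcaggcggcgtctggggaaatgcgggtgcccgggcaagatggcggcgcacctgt

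Syntaxins sit mostly in target membranes, and 4 rose and 1 fell of 12 tested (41.7% called, near the 38.3% of all genes). Stx6 (chromosome 1, 155158715 to 155208256), which receives vesicles from endosomes at the Golgi, was at 5.76, 5.79 and 5.62 log2 CPM in panobinostat libraries, against 4.73, 4.74 and 4.80 log2 CPM in untreated libraries. Its rise was 1.96-fold with groups far apart (log2 fold change 0.97 ± 0.09, limma adjusted p = 0.000488). Stx1a, known from nerve terminals, was near the detection limit, at 1.57, 1.64 and 1.19 log2 CPM in panobinostat libraries, against 0.38, 0.02 and 0.02 log2 CPM in untreated libraries (log2 fold change 1.33 ± 0.30, limma adjusted p = 0.0113). Stx11, needed for granule release by cytotoxic lymphocytes, was at 3.43, 3.40 and 3.40 log2 CPM in panobinostat libraries, against 2.43, 3.02 and 2.31 log2 CPM in untreated libraries (log2 fold change 0.82 ± 0.21, limma adjusted p = 0.0184), and its call was lost on leaving out any 1 of panobinostat libraries 1, 2 and 3 or untreated library 3 (0.68 to 0.83). Stx12, of recycling endosomes, rose by 0.41 ± 0.10, with its call lost on leaving out any 1 of panobinostat libraries 2 and 3 or untreated library 3 (0.35 to 0.42). Stx18, of the endoplasmic reticulum, fell (-0.83 ± 0.21), its last 1000 bases overlap an exon of Nsg1 on the other strand, and its call was lost on leaving out any 1 of panobinostat libraries 2 and 3 or untreated libraries 2 and 3 (-0.81 to -0.71). The late endosomal Stx7 had -0.10 ± 0.18, and the other 6 syntaxins not called ranged from -0.25 (Stx17) to 0.35 (Stx16).

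VAMPs sit on vesicles, and 1 rose and 2 fell of 7 tested (42.9% called, near the 38.3% of all genes). Vamp8 (chromosome 6, 72385223 to 72390703), which serves late endosome fusion and granule release, was at 4.76, 4.46 and 4.54 log2 CPM in panobinostat libraries, against 5.48, 5.96 and 6.01 log2 CPM in untreated libraries. All panobinostat libraries were lower, and the fall was 2.35-fold (log2 fold change -1.24 ± 0.16, limma adjusted p = 0.0014). Vamp1 was at 4.46, 4.96 and 4.81 log2 CPM in panobinostat libraries, against 4.02, 3.96 and 3.64 log2 CPM in untreated libraries (log2 fold change 0.87 ± 0.17, limma adjusted p = 0.00619). Vamp5 fell close to the threshold (-0.55 ± 0.19), with its call lost on leaving out any 1 of panobinostat libraries 1 and 2 or untreated libraries 1, 2 and 3 (-0.61 to -0.46). The vesicle SNAREs of recycling and late endosomes, Vamp3 (-0.28 ± 0.15), Vamp4 (0.03 ± 0.13) and Vamp7 (-0.20 ± 0.18), were not called, nor was Vamp2 (0.05 ± 0.19).

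Other rows meet the naming rule without being part of these complexes. Vps72 shares only its name with them: it encodes YL1, a chaperone of histone H2A.Z in chromatin remodelling complexes, and was at 6.22, 5.99 and 6.15 log2 CPM in panobinostat libraries, against 6.67, 6.54 and 6.60 log2 CPM in untreated libraries (log2 fold change -0.48 ± 0.09, limma adjusted p = 0.00532). Vps45, which assists syntaxins, had -0.12 ± 0.26, and Vps9d1, with a domain of Rab5 activators, -0.00 ± 0.16. Rab10os, an antisense transcript over the end of Rab10, was at 4.72, 4.70 and 4.63 log2 CPM in panobinostat libraries, against 5.63, 5.98 and 5.86 log2 CPM in untreated libraries (log2 fold change -1.14 ± 0.11, limma adjusted p = 0.000555), whereas Rab10 had 0.14 ± 0.07. The strand setting of the counting was not given in the sources used here, so reads of such overlapping pairs cannot be told apart. The pseudogene row Rab11b-ps2, of low expression, fell as well (-1.43 ± 0.35), with its call lost without untreated library 2 (-1.35) or untreated library 3 (-1.36). It can share reads with Rab11b. Rab26os had 0.22 ± 0.15 and was not called. Exons of another gene lay within the last 1000 bases of 23 tested members, of which 7 were called: Rab10os, Rab3a, Stx18, Tbc1d8, Vps29, Vps37b and Vps51. Among all tested members 47.2% were called, and among all genes 38.3%.

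Genes of the same pathways outside the naming rule were counted from lists chosen for their function. Of 47 further Rab cycle genes 9 rose and 7 fell (34% called, against 38.3% of all genes). The Rab35 activator Dennd1c (-1.52 ± 0.14) fell, and Rilpl1 (1.42 ± 0.14), a Rab effector, and Chml (0.74 ± 0.11), an escort for newly made Rabs, rose. Of 17 further ESCRT genes 3 rose and 2 fell (29.4%), the rises being Pdcd6ip, which encodes ALIX (0.73 ± 0.14), the cell division factor Cep55 (1.12 ± 0.21) and the VPS4 cofactor Vta1 (1.25 ± 0.24). Of 25 further SNAREs and their helpers 5 rose and 9 fell (56%). Among them Stxbp2, the partner of Stx11 (-0.66 ± 0.12), and the Golgi factor Scfd1 (-0.80 ± 0.10) fell. WASH and commander genes, which work beside retromer, gave 1 rise, that of Commd6 (0.62 ± 0.19), and 0 falls of 17 tested (5.88% called), with Commd7 at -0.29 ± 0.12 and Washc4 at 0.24 ± 0.10.

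Untreated library 1 was the untreated library nearest the panobinostat mean in 42 of the 77 called members (54.5%), and in 56.3% of all called genes. Leaving it out gave 47 rises and 34 falls among the members, and 2664 and 2562 among all genes (49.7% of members called, against 41.6% of all genes). Calls gained without it were rises of Rab6b (1.36), Rab3gap2 (0.75), Vps50 (0.64), Stx16 (0.49) and Tbc1d20 (0.40) and falls of Tbc1d10a (-0.67), Snx17 (-0.57), Vamp3 (-0.42) and Rab2a (-0.25). Tbc1d5 (-0.58) was gained without panobinostat library 1, Rab4b (-0.65) without panobinostat library 2, and Tbc1d23 (0.82) and Vps25 (0.47) without untreated library 3. Over the 162 members with a transcript sequence, Spearman's rho between the GC content of the last 500 bases and the log2 fold change was -0.186, against -0.0725 over all 12355 such genes. Median GC was 42.9% in risen and 45.4% in fallen members, and 43.4% and 45.4% in all risen and fallen genes. Genes share libraries, so these are descriptions across genes, and the part of GC in the changes was not tested.

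Values of the members below the filter complete the set. Rab11fip5 was at 0.27, 0.35 and 0.71 log2 CPM in panobinostat libraries, against -1.83, -1.83 and -1.83 log2 CPM in untreated libraries. Rab26 was at 1.64, 0.21 and 0.51 log2 CPM in panobinostat libraries, against -1.22, -1.83 and -1.22 log2 CPM in untreated libraries. In these 2 the panobinostat libraries were all higher, at levels that correspond to few reads. Without the filter limma gave adjusted p = 0.00887 for Rab11fip5 and 0.0149 for Rab26. Snx32 was at 0.27, 0.67 and 0.71 log2 CPM in panobinostat libraries, against 0.21, -3.25 and 0.18 log2 CPM in untreated libraries, with the panobinostat libraries narrowly above untreated libraries 1 and 3 and far above untreated library 2. The groups overlapped in the remaining 4, with mean log2 CPM in panobinostat against untreated libraries of -0.96 against -0.09 (Rab44), 0.21 against -0.54 (Snx21), -0.01 against -0.04 (Stx3) and -0.26 against 0.12 (Tbc1d9).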

How the data were processed

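RNA of 6 libraries was sequenced from its 3' end (QuantSeq, from 100 ng of total RNA, per the labels). The submitters' processing notes list mouse build mm10 together with limma, featureCounts, Subread 1.5.0, HISAT2 2.1.0 and cutadapt 1.9. The deposited table holds 13185 rows of log2 CPM. Its values looked quantile normalized, as judged from the values: 87.6% of ranks lay within 0.05 of their common mean, and the linear values summed to 994114 to 994182 per library. Its columns were numbered 1 to 3 in each group and matched to libraries by title and running number. Of the rows, 19 had a symbol turned into a date.

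The deposited log2 values were fitted for all 12554 genes with a mean of at least 0 (631 were not tested) with limma 3.58.1 in R 4.3.3, with a trended empirical Bayes variance and Benjamini-Hochberg adjustment at 0.05, 3 panobinostat against 3 untreated libraries. An exact permutation test of 3 against 3 libraries cannot give a p below 0.1, so none was used. On simulated data with 200 changed genes, 43% of changes of 1 and 9% of changes of 0.5 log2 units were called, with 3 unchanged genes called; with so few changed genes the adjusted threshold is stricter than in the real fit. Members and lists were chosen with earlier results of these data known. Named were the 10 largest called rises and falls, up to 4 members per role by adjusted p, a list of well-known members and their paralogs, and up to 3 genes of each list outside the rule. A gene that this rule would name is not reported here. Exon overlaps and GC content came from GENCODE M21, where 169 of 170 members matched a single gene, and promoters from RefSeq. Values were tabulated with Python 3.11.15. The alternatives were other filters, scalings, pseudocounts, variance settings, weights, a block, a stricter threshold and leaving out each library.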

Additional observations from a re-analysis of the deposited data

How the results depend on the processing

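At an adjusted p of 0.01 in limma, 28 members rose and 17 fell, and 1240 and 1273 of all genes did. Leaving out each library in turn gave 35 to 47 rises and 22 to 34 falls among the members, and 1587 to 2664 rises and 1636 to 2562 falls among all genes. The lowest count of rises over all genes, 1587, came without panobinostat library 3. Of the 77 called members 52 kept the call in all 6 of these fits. With array weights 51 members rose and 41 fell, and 3089 and 3018 of all genes did (56.4% of members called, against 48.6% of all genes). Same-numbered libraries did not deviate together (correlations of -0.0444, 0.104 and -0.0108). Such values cannot show whether these libraries were paired by design, which the labels do not say. A fit with the replicate block gave 41 rises and 27 falls among the members, and 2079 and 2069 among all genes. Signs turned only in members that were not called. With array weights Vamp2 was at -0.06 and Vps9d1 at 0.10. Over the fits without 1 library the log2 fold change ran between -0.12 and 0.16 for Vamp2, -0.10 and 0.10 for Vps9d1, -0.39 and 0.23 for Rab4a, -0.24 and 0.01 for Snx27, -0.32 and 0.12 for Tbc1d8b, -0.01 and 0.12 for Vamp4, -0.30 and 0.11 for Vps45, -0.26 and 0.19 for Rab5a, -0.16 and 0.05 for Snx6, -0.02 and 0.22 for Rab2b, -0.02 and 0.13 for Rab7b, -0.23 and 0.03 for Stx7, -0.03 and 0.07 for Snx5, and -0.20 and 0.02 for Vps4a. The cause was not tested. A member that was not called may still have changed.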
